A study of Homo sapiens with 9 samples.

Results

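The mRNAs of 8 genes were followed through antibody-barcode eCLIP (ABC): the actins ACTB and ACTG1, the α-tubulins TUBA1A, TUBA1B and TUBA1C, and the β-tubulins TUBB, TUBB2A and TUBB4B. Their members in the data are the merged peaks of every library that overlap one of these genes on its strand in the GENCODE annotation of GRCh38. These were 2465 of 2478204 peaks (0.0995%), on 8 of the 21986 genes that held a peak. Of the 2465 peaks, 1272 came from 10plex ABC in K562 cells, 987 from 10plex ABC in HEK293T cells and 206 from singleplex ABC, with 3 to 105 per library. No member peak overlapped another gene on the same strand.

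In ABC, RNA crosslinked to its RNA-binding proteins (RBPs) by ultraviolet light is pulled down with antibodies that each carry a DNA barcode, and the barcode ligated to a fragment names the antibody. In 10plex ABC the barcoded antibodies to DDX3, EIF3G, FAM120A, IGF2BP2, LIN28B, PRPF8, PUM2, RBFOX2, SF3B4 and ZC3H11A shared 1 tube. Such pools were made in 3 replicates in K562, an erythroleukemia line, and in 2 replicates in HEK293T, a line of embryonic kidney cells, which gave 30 and 20 libraries. Singleplex ABC was run for RBFOX2 in HEK293T cells and for SLBP, a histone mRNA binding protein, in K562 cells, with 2 libraries each. The labels name no treatment or genotype that separates the groups apart from the cell line, the antibody and the pooling.

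Actin and tubulin are the subunits of microfilaments and microtubules, and their mRNAs are among the most abundant in most cells. ACTB mRNA carries a zipcode at the start of its 3′ UTR, an element bound by the IGF2BP family and known for bringing the mRNA to the leading edge of migrating cells. Tubulin mRNAs are known for their autoregulation, in which free tubulin sets off the decay of tubulin mRNAs on the ribosome. Members of each family share long stretches of coding sequence, whereas their UTRs differ.

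The reads of a peak were summed for each gene and given as reads per 1e6 of the summed reads in all merged peaks of the library (RPM), with a read that crosses touching peaks counted in each. The summed reads ran from 13666 to 2210488 in the K562 pools, from 23651 to 3145323 in the HEK293T pools, from 2233239 to 4507173 for singleplex RBFOX2 and from 19947 to 85962 for singleplex SLBP. The members took 0.0752% to 0.730% of a library's summed reads. The HEK293T pools carry K562 in 1 label field, against their titles. Their summed level of 8 erythroid genes ran from 1.02 to 6.75 RPM with 6 of 8 at 0, against 2870 to 4720 RPM in the K562 pools. Their summed level of 5 genes of kidney or neural type ran from 515 to 675 RPM, against 26.5 to 140 RPM with 2 of 5 at 0 in the K562 pools. They were grouped by their titles.

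Reads that map to several places had been removed, which bears on gene families. Of the 30-nt stretches of the mRNA, 50.8% occurred once in the genome for ACTB, 68.0% for ACTG1, 35.7% for TUBA1A, 27.3% for TUBA1B, 56.5% for TUBA1C, 57.1% for TUBB, 29.1% for TUBB2A and 73.8% for TUBB4B. In K562 cells, peaks covered 97.3% of the unique stretches of TUBA1B and 15.1% of the repeated ones. For TUBB2A the coverage was 57.4% and 1.41%, and for ACTB 85.6% and 57.2%. In the coding sequence, which is the shared part, only 13.7% of the stretches of TUBA1B and 13% of those of TUBB2A were unique, so that their levels there are lower bounds and reads of near-identical paralogs cannot be told apart.

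ACTB (ENSG00000075624) lies on the minus strand at chr7:5526409-5563902 and ACTG1 (ENSG00000184009) on the minus strand at chr17:81509413-81523847. ACTB held 713 peaks in all and ACTG1 435. The α-tubulin genes lie together on chromosome 12. TUBA1A (ENSG00000167552; minus strand, chr12:49184686-49189080) held 24 peaks, TUBA1B (ENSG00000123416; minus strand, chr12:49127782-49131397) held 308 and TUBA1C (ENSG00000167553; plus strand, chr12:49188736-49274600) held 241. Of the β-tubulin genes, TUBB (ENSG00000196230; plus strand, chr6:30717435-30725538) held 491 peaks, TUBB2A (ENSG00000137267; minus strand, chr6:3153497-3157544) held 48 and TUBB4B (ENSG00000188229; plus strand, chr9:137241287-137243707) held 205.

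Per kilobase of mRNA, ACTB had the highest level of the members in K562 cells. Averaged over the 10 RBPs of a pool, it stood at 809, 823 and 1006 RPM per kb, a mean of 879 ± 110 (SD, n = 3 pools). TUBB followed with 359 ± 69.3, TUBA1B with 225 ± 82.1 and ACTG1 with 210 ± 52.0 RPM per kb, and neighbours among these 3 overlapped between pools. TUBA1C and TUBB4B, with 64.6 ± 14.8 and 62.7 ± 11.9 RPM per kb, overlapped each other and lay below ACTG1. TUBB2A stood at 6.25 ± 1.33 RPM per kb and TUBA1A at 0.348 ± 0.312, with no TUBA1A peak in the first pool. In both cell lines these levels divide all peak reads of a gene, introns included, by the full mRNA length. As the unique part of the mRNA differs among the members, their order may depend on it.

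In HEK293T cells the order was led by both actins. ACTG1 stood at 637 and 464 RPM per kb and ACTB at 506 and 504, which overlap. TUBB had 290 ± 44.4 RPM per kb (SD, n = 2 pools), TUBA1B 106 ± 43.9, TUBB4B 50.3 ± 7.71 and TUBA1C 13.4 ± 5.34, each below the one before in both pools. TUBA1A, with 2.54 ± 1.08, and TUBB2A, with 2.39 ± 1.34, overlapped.

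**Figure D1:**
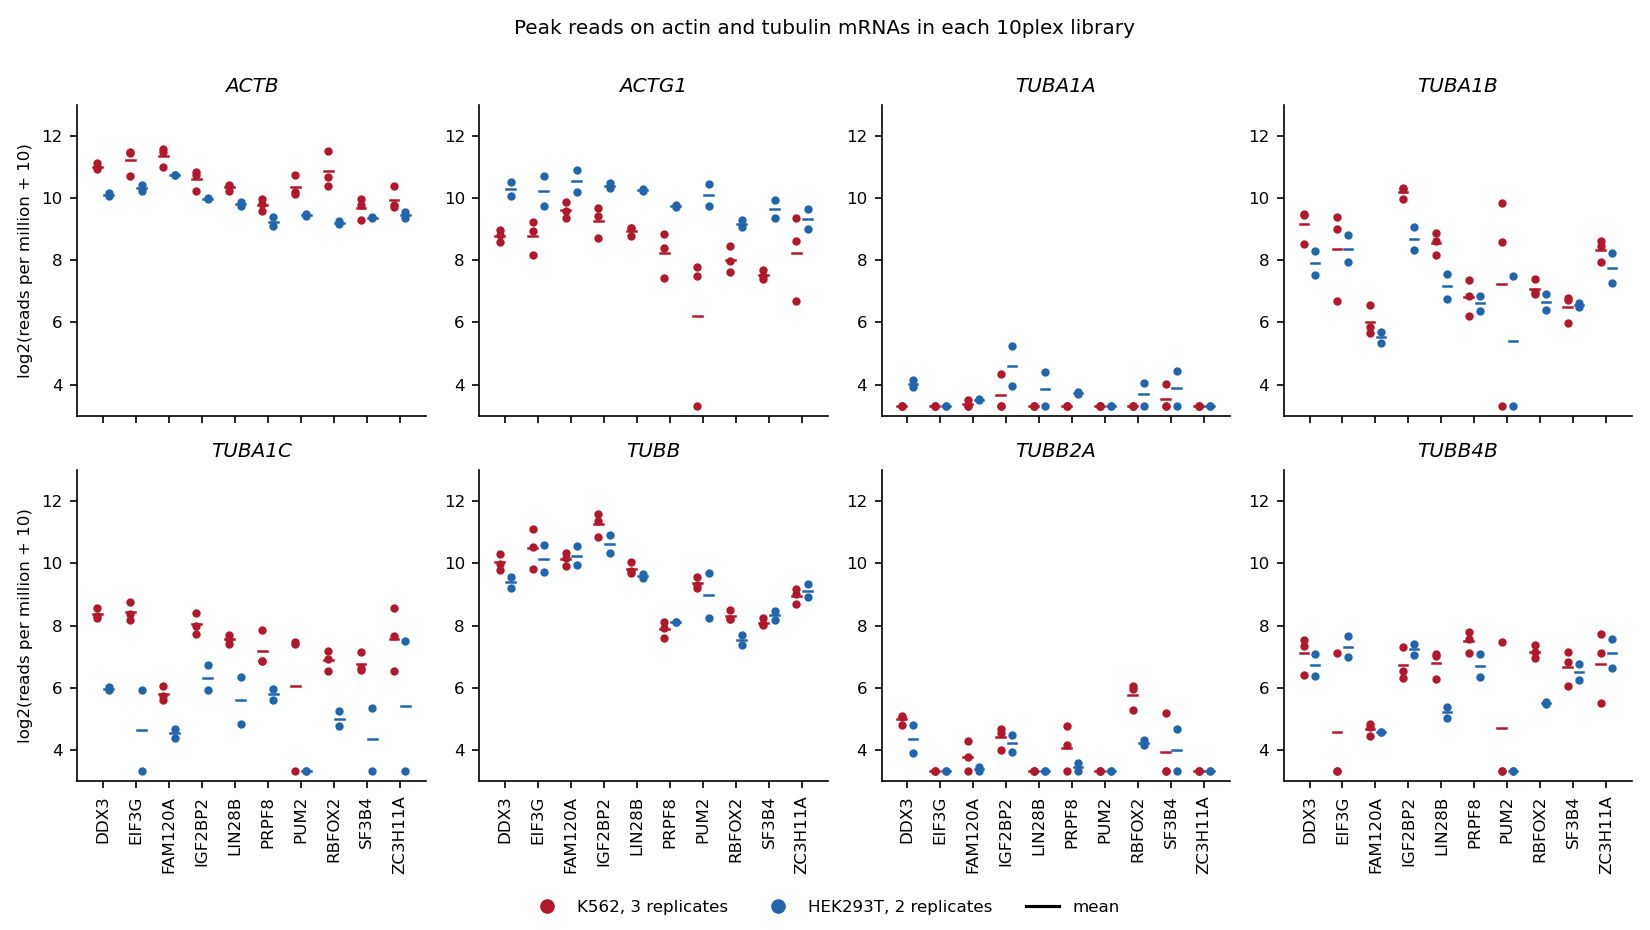
Peak reads on each actin and tubulin mRNA as log2(RPM + 10) in the 10plex libraries, by RBP. Each point is 1 library (3 K562 and 2 HEK293T replicates) and each bar the mean of a cell line; IGF2BP2 has the highest mean on TUBA1B and TUBB in both cell lines, and FAM120A the highest on ACTG1 in both.

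Which RBP sits on which of these mRNAs was asked with the mean log2(RPM + 10) of 1 RBP over the replicates, set against every choice of 1 RBP per pool (exact one-sided permutation test for a higher value, adjusted by Benjamini-Hochberg over all genes and RBPs tested). In K562 cells 8658 genes had at least 100 summed reads, among them all members but TUBA1A. Of the 70 pairs of member and RBP, 4 passed an adjusted p of 0.05, where 6.45% of all pairs did, and 12 had an unadjusted p below 0.05, where 15.2% of all pairs did. The pairs that passed were IGF2BP2 on TUBA1B and on TUBB, FAM120A on ACTG1 and RBFOX2 on TUBB2A. The last is not used as a result, because TUBB2A reached 100 reads only through RBFOX2, which held 73 of its 141 reads. Of all genes tested, 5.75% passed for IGF2BP2, 17.4% for FAM120A and 5.86% for RBFOX2.

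IGF2BP2, which binds 3′ UTRs and stabilises mRNAs, led on TUBA1B. Its 3 K562 libraries held 984, 1279 and 1247 RPM on TUBA1B (188, 381 and 620 reads). No library of the other 9 RBPs reached these levels; the highest was 896 RPM in PUM2 replicate 3, from 16 reads. The difference of the means was 2.64 on the log2(RPM + 10) scale, or 6.22-fold (exact permutation p = 0.001, the smallest that 1000 choices give, adjusted p = 0.0222). In HEK293T cells IGF2BP2 held 525 and 309 RPM, a difference of 1.81.

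IGF2BP2 was above the other RBPs on TUBB too, whose mRNA encodes the main β-tubulin of dividing cells. It held 1837, 3051 and 2611 RPM (351, 909 and 1298 reads) in K562 cells, a difference of 2.03, or 4.09-fold (exact permutation p = 0.001, adjusted p = 0.0222). EIF3G had the next highest mean, 1519 ± 648 RPM (SD, n = 3), and its replicate 3 with 2187 RPM overlapped IGF2BP2. In HEK293T cells IGF2BP2 held 1897 and 1270 RPM, a difference of 1.56. On the other tubulin mRNAs IGF2BP2 did not pass the test.

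FAM120A, a 3′ UTR binding protein, held 646, 756 and 918 RPM on ACTG1 (619, 1672 and 770 reads), 1.38 above the other 9 on the log2 scale, or 2.60-fold (exact permutation p = 0.002, adjusted p = 0.0347). IGF2BP2, with 408, 806 and 682 RPM, overlapped it. The call rests on how touching peaks are counted: with each run of them counted once, the difference was 0.62 (exact permutation p = 0.147, adjusted p = 0.613). On ACTB, FAM120A held 3050, 2027 and 2855 RPM, the highest mean of the 10 RBPs, but the difference of 0.94 did not pass (exact permutation p = 0.008, adjusted p = 0.0925), and it was 0.30 with runs counted once.

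RBFOX2, a splicing factor that binds GCATG, had a low level on TUBB2A, with 56.7, 52.1 and 29.3 RPM from 27, 35 and 11 reads. These values are a description, with no test, since the read minimum was met through RBFOX2 itself. In HEK293T cells TUBB2A did not reach the minimum.

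In HEK293T cells 6 members, all but TUBA1A and TUBB2A, were among the 11717 genes tested. Of their 60 pairs 0 passed, as did 0.00% of all pairs: 100 choices allow no p below 0.01, and the smallest adjusted p was 0.162. At an unadjusted p below 0.05 there were 6 pairs, where 10.7% of all pairs passed. FAM120A on ACTB (1679 and 1680 RPM, a difference of 1.06), IGF2BP2 on TUBA1B and IGF2BP2 on TUBB reached the smallest p. With the 5 pools of both lines together, 5 of 70 pairs passed, where 8.90% of all pairs did. These were the 4 pairs of K562 cells, RBFOX2 on TUBB2A again among them, and FAM120A on ACTB, with a difference of 0.99 (exact permutation adjusted p = 0.00279). The test over 5 pools was not run with touching peaks counted once, which lowered the FAM120A difference on ACTB in K562 cells as given above. The pools of K562 cells are part of this test, so that it is no independent check of them, and without RBFOX2 TUBB2A held 102 reads over both lines, just above the minimum.

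The RBPs met these mRNAs at different places. Over all members together in K562 cells, 86.5% of the FAM120A reads and 61.1% of the IGF2BP2 reads lay in peaks of the 3′ UTR. Of the 17822 FAM120A reads, 9798 were on ACTB, 4496 on TUBB and 3061 on ACTG1, so that these mRNAs set its share. LIN28B, known for binding coding sequence as well as let-7 precursors, had 78.6% of its reads in the CDS. This was not particular to LIN28B, as the CDS took 76.7% for PRPF8, 70.4% for SF3B4 and 65.5% for DDX3. The 5′ UTR took 37.4% of the reads of EIF3G, a subunit of an initiation factor, and 27.3% of those of DDX3, an RNA helicase of initiation. It also took 23.5% of those of the splicing factor RBFOX2, whose mean on ACTB, 31.35%, was above the 27.87% of DDX3.

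The spliceosome proteins PRPF8 and SF3B4 had 8.32% and 4.56% of their member reads in introns, and RBFOX2 had 21.9%. In HEK293T cells these were 1.84%, 2.34% and 10.9%. A peak that touches an exon was not counted in the intron, so these shares leave out peaks across splice sites. On TUBA1C in K562 cells 100% of the PRPF8 reads counted in the CDS, though a site there reaches 38 nt into intron 3. In HEK293T cells FAM120A had 84.4% in the 3′ UTR and LIN28B 81.4% in the CDS, where PRPF8 had 84.4%. There IGF2BP2 had 30.0% of its reads in the 3′ UTR and 62.1% in the CDS. A peak that touches both was counted in the CDS.

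**Figure D2:**
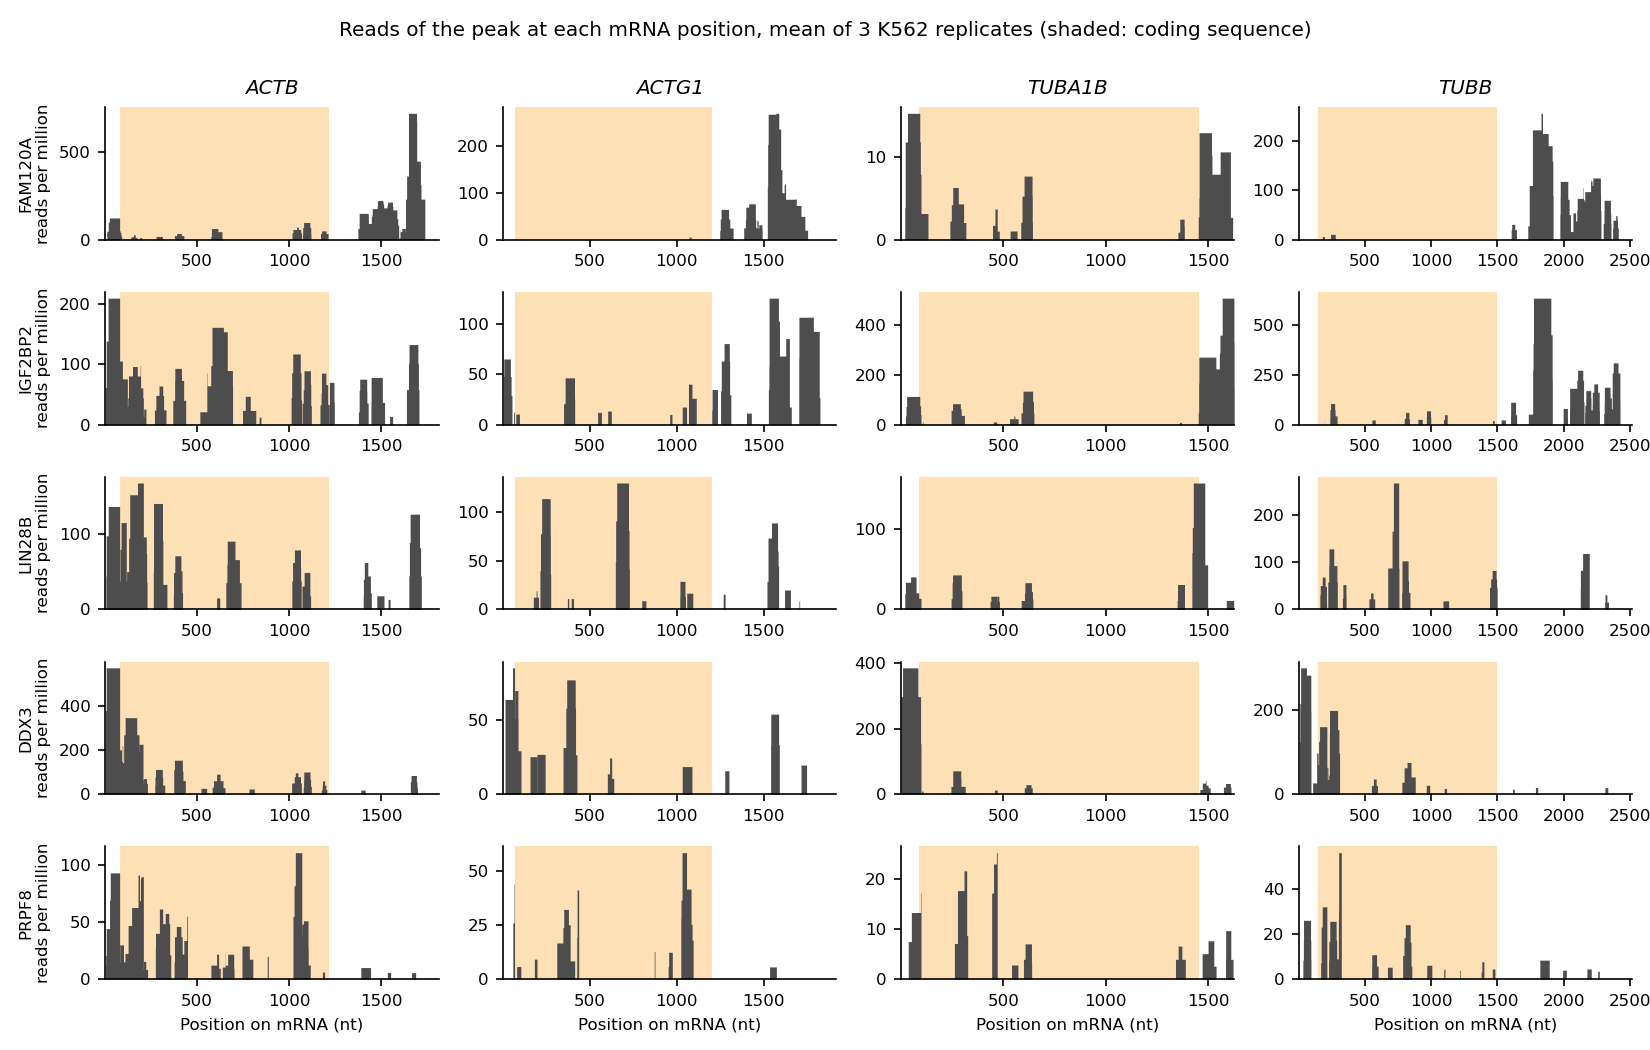
Reads at each position of the mRNA, as RPM of the peak there and averaged over 3 K562 replicates, for selected RBPs and members; the coding sequence is shaded. FAM120A lies to the right of the shading on ACTB and ACTG1, and most LIN28B reads within it.

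The share of a member's reads in its 3′ UTR was compared between RBPs in the same way. Of 58 pairs in K562 cells 0 passed the adjusted test, as did 0.00% of all 39433 pairs, since the smallest adjusted p was 0.221, and 9 had an unadjusted p below 0.05 (11.8% of all pairs). On ACTB the 3′ UTR took 82.6%, 83.4% and 71.4% of the FAM120A reads, 79.1% ± 6.72 (SD, n = 3), against 11.5% for the mean of the other 9 (unadjusted exact permutation p = 0.001, adjusted p = 0.221). On ACTG1 and TUBB the FAM120A share was 99.2% ± 1.31 and 98.3% ± 1.68. All 3 FAM120A replicates lay above 70% on each of these mRNAs. On TUBA1B, TUBA1C and TUBB4B, with 214, 175 and 58 FAM120A reads, the share was lower, at 26.8% ± 5.66, 23.7% ± 10.7 and 0%. The CDS took 56.4%, 64.7% and 78.0% of the FAM120A reads there.

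The IGF2BP2 share differed among the members too. Its 3′ UTR share in K562 cells was 84.1% ± 4.65 on TUBB, 65.9% ± 6.60 on TUBA1B and 61.4% ± 12.2 on ACTG1, but 22.5% ± 8.32 on ACTB and 10.5% ± 10.0 on TUBB4B (SD, n = 3). In HEK293T cells it was 50.9% ± 16.3 on TUBB, 55.7% ± 15.6 on TUBA1B, 24.9% ± 12.2 on ACTG1 and 7.95% ± 2.34 on ACTB (SD, n = 2). The unique part of the 3′ UTR and of the CDS also differed among members. It was 38.2% and 54% for ACTB, 68.6% and 65.4% for ACTG1, and 95.9% and 13.7% for TUBA1B. For TUBA1C it was 82.8% and 26.8%, for TUBB 70.4% and 43.1%, and for TUBB4B 60.7% and 72.9%. Whether mappability accounts for the differences between members in the share was not tested, for FAM120A or for IGF2BP2.

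**Figure D3:**
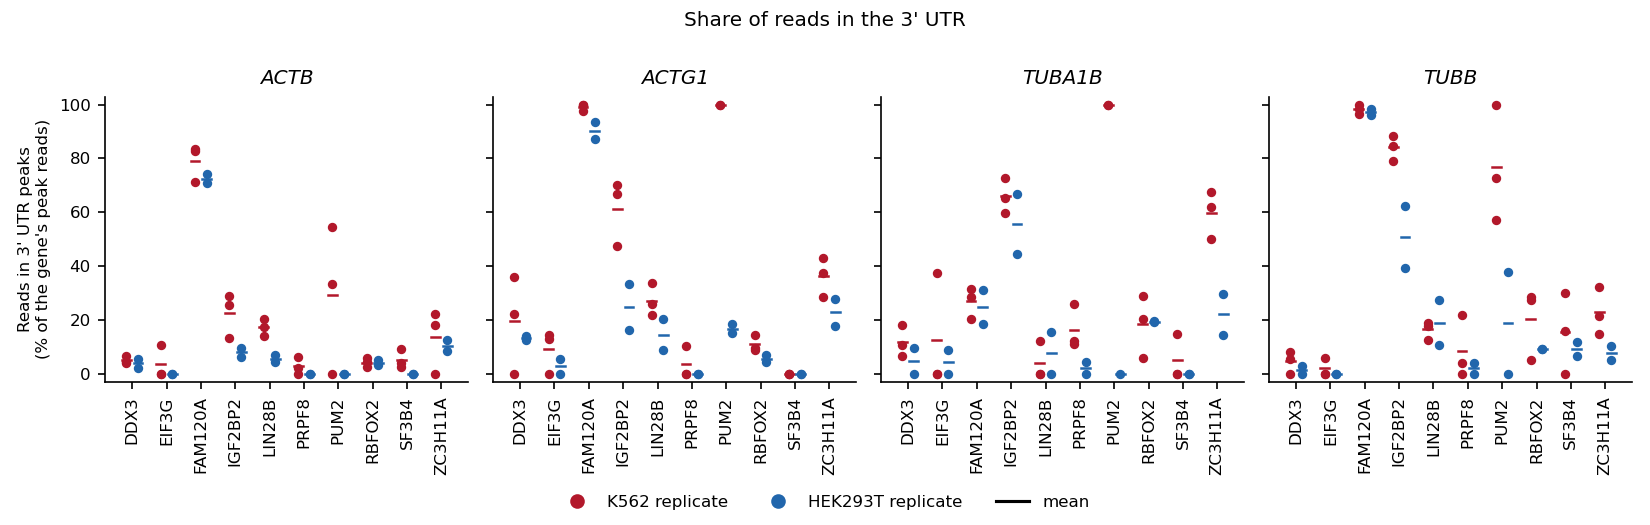
Share of a gene's peak reads that lies in 3′ UTR peaks, in percent, by RBP for 3 K562 and 2 HEK293T replicates with the mean of each line as a bar. FAM120A has all K562 replicates above 70% on ACTB, ACTG1 and TUBB, while IGF2BP2 has a K562 mean of 84.1% on TUBB and 22.5% on ACTB.

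A peak counted as enriched over the complement control (CC) when its P was under 0.001 and its fold exceeded 8. The CC is the reads of the other 9 barcodes of the pool at the same place. In K562 cells 78 of the 1240 member peaks with a CC value were enriched (6.29%), where 20% of all peaks were. In HEK293T cells 45 of 961 were (4.68%), where 13% of all peaks were. FAM120A and IGF2BP2 had the most, 28 and 12 of the 78. LIN28B had 9 of 131 member peaks enriched (6.87%), where 37.4% of all LIN28B peaks were, and SF3B4 8 of 120 (6.67%), where 30.2% were. RBFOX2 had 8 of 186 (4.30%, against 10.4% of all), with the 4 on ACTB all in 1 replicate, and PRPF8 5 of 157 (3.18%, against 21.9%). Of the initiation proteins, DDX3 had 5 of 123 (4.07%, against 21.2%) and EIF3G 2 of 76 (2.63%, against 32.3%). PUM2 had 1 of 24 (4.17%, against 31.2%) and ZC3H11A 0 of 93, against 22.5% of all its peaks.

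The 28 enriched FAM120A peaks were 17.1% of its 164 member peaks, where 18.3% of all FAM120A peaks were enriched. All 28 lay in 3′ UTRs, 20 on ACTB and 8 on ACTG1. Those on ACTB formed 8 runs of touching peaks between 237 and 525 nt after the stop codon over the 3 replicates, with folds of 8.07 to 17.9. In HEK293T cells 23 of 127 (18.1%, against 18.5% of all) were enriched, again all in 3′ UTRs, with 16 on ACTB, 5 on ACTG1 and 2 on TUBB.

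The FAM120A sites are shown first, as they hold the most enriched reads among the members. The ACTB site, which had the highest mean fold of those enriched in each of the 3 K562 pools, lay at chr7:5527247-5527266 on the minus strand, 482 to 501 nt after the stop codon. On ACTG1 no site was enriched in all 3, and the site of most reads lay at chr17:81510303-81510319 on the minus strand, 371 to 387 nt after the stop codon. These GRCh38 sequences read 5′ to 3′, with no motif marked.
ACTB, FAM120A: tcccccaacttgagatgtat
ACTG1, FAM120A: tgtcagggctgagtgtt

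The ACTB site held 384, 554 and 584 FAM120A reads with folds over the CC of 16.2, 11.3 and 10.3, and in HEK293T cells the folds at this place were 24.8 and 20.2. The ACTG1 site held 260, 438 and 284 reads, with folds of 11.1, 6.12 and 8.49, so that replicate 2 missed the limit. In HEK293T cells the peak there was wider and its folds were 3.06 and 3.72. The 2 stretches were chosen in K562 cells, and the HEK293T values are from pools that the choice did not use.

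IGF2BP2 had 12 enriched peaks of 166 in K562 cells (7.23%, where 12% of all IGF2BP2 peaks were), 7 on TUBA1B, 2 on TUBA1C, 2 on TUBB, 1 on TUBB2A and 0 on ACTB and ACTG1. The TUBA1B site with the highest mean fold lay at chr12:49127784-49127840 on the minus strand, 118 to 174 nt after the stop codon and close to the end of the mRNA. It held 85, 157 and 272 reads, with folds of 25.3, 22.95 and 17.7. As the site was chosen among those enriched in all 3 K562 pools, their passing the limits was set by the choice. In the HEK293T pools, which the choice did not use, it held 121 and 91 reads. The folds there were 18.1 and 20.2, and both pools passed the limits.

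The middle 30 nt of this site, at chr12:49127797-49127826 on the minus strand, are shown with capitals for CAT, the core of the element named for the IGF2BP family.
TUBA1B, IGF2BP2: aatatttttcCATCATatctcaaagtaaag
At least 2 copies of CAT, searched on the strand of the peak, were found in 8.82% of the 30-nt windows of all IGF2BP2 peaks in K562 cells and in 13% of those of the enriched ones.

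TUBA1B carried a DDX3 site as well, which was chosen after its values were seen. The stretch shared by the 3 K562 replicates lay in the 5′ UTR, from 87 to 13 nt before the start codon, and the peaks held 33, 73 and 97 reads with folds of 10.5, 11.3 and 8.70. Its middle 30 nt, at chr12:49131335-49131364 on the minus strand, have no motif marked.
TUBA1B, DDX3: cggggacggtaaccgggacccggtgtctgc
In K562 replicates 2 and 3 the peak reached past the start codon and was counted in the CDS, so that the 5′ UTR took 73.3% of the DDX3 reads on TUBA1B in replicate 1 and 0% in the others. In HEK293T cells the DDX3 peaks over this stretch held 78 and 62 reads with log2 folds of −0.46 and −0.90, and neither was enriched.

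On TUBB, LIN28B had 5 enriched peaks in the CDS. The site with the highest mean fold lay at chr6:30723622-30723661 on the plus strand, 559 to 598 nt from the start codon. It held 35, 63 and 46 reads with folds of 12.1, 14.2 and 30.3, and in HEK293T cells folds of 11.2 and 6.11. The 30 nt shown, chr6:30723627-30723656, hold no GGAG, the motif named for LIN28 proteins, which was found on the strand of the peak in 29.0% of the windows of all LIN28B peaks and in 31.4% of those of the enriched ones.
TUBB, LIN28B: gtccatcagttggtagagaatactgatgag

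On TUBA1C the site of most reads belonged to PRPF8, the spliceosome protein that holds the 5′ splice site. It lay at chr12:49269956-49270014 on the plus strand and ran from 21 nt before the start of intron 3 to 38 nt into it. It held 28, 23 and 116 reads with folds of 7.08, 15.7 and 16.8, and in HEK293T cells folds of 9.51 and 15.9. Of the 5 pools, only K562 replicate 1 missed the fold limit. The 30 nt at chr12:49269970-49269999 have the match to GTAAGT, a common start of introns, in capitals.
TUBA1C, PRPF8: caagctgGTAAGTatagtactttaaataaa
GTAAGT was found on the strand of the peak in 8.03% of the windows of all PRPF8 peaks and in 12.6% of those of the enriched ones.

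TUBB4B and TUBB2A had no site enriched in all replicates. On TUBB4B the site of most reads was one of PRPF8, 33 to 63 nt into intron 1, with 22, 9 and 43 reads and folds of 4.87, 2.60 and 5.47. On TUBB2A it was one of RBFOX2 in the 5′ UTR, with 7, 7 and 11 reads and folds of 2.43, 3.76 and 4.49. TUBA1A had no site shared by the 3 K562 replicates; its 3 K562 peaks held 11 reads in all and its 20 HEK293T peaks 81.

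RBFOX2 had a site on ACTG1 outside the mature mRNA, which was chosen after its values were seen. It lay 192 to 253 nt into intron 3, which is 276 nt long, in a stretch that noncoding transcripts of ACTG1 keep as an exon. In HEK293T cells it held 236 and 194 reads with folds of 11.6 and 8.67 over the CC. In K562 cells it held 18, 25 and 39 reads with folds of 7.39, 7.10 and 26.5, so that 3 of the 5 pools passed the limits.

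Singleplex RBFOX2, which has no CC, had 3 touching peaks at this place in each replicate, with 401 to 677 reads in replicate 1 and 247 to 328 in replicate 2 and folds of 57.3 to 107 over the external background. The middle 30 nt, chr17:81511666-81511695 on the minus strand, have GCATG in capitals.
ACTG1, RBFOX2: tgtggcgtgtgaGCATGgggtggccgtggg
GCATG was found on the strand of the peak in 7.04% of the windows of all RBFOX2 peaks of K562 cells and in 16.7% of those of the enriched ones. All noncoding-exon peaks of ACTG1 together, this site among them, took 24.5% ± 11.7 (SD, n = 3) of the RBFOX2 reads on ACTG1 in K562 cells, 24.5% ± 14.4 in HEK293T pools and 57.9% ± 7.71 in singleplex (SD, n = 2). On ACTB, RBFOX2 had 28.5% ± 3.90, 25.5% ± 7.39 and 32.9% ± 11.1 of its reads in introns.

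IGF2BP2 on ACTB is a known case and was followed peak by peak. IGF2BP2 held 1198, 1806 and 1692 RPM on ACTB in K562 cells, from 229, 538 and 841 reads, and 993 and 1007 RPM in HEK293T cells. These lie among the levels of the other RBPs, below FAM120A in every pool. It had 48 merged peaks on ACTB in K562 cells (11, 19 and 18 in the 3 replicates) and 32 in HEK293T cells (16 in each).

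Over the CC 0 of the 48 and 0 of the 32 peaks were enriched. The log2 folds ran from −1.60 to 2.84 with a median of 0.12 in K562 cells and from −1.75 to 0.98 with a median of 0.43 in HEK293T cells. The lowest value in K562 cells lay within the stretch of the FAM120A runs, at 440 to 487 nt after the stop codon in replicate 1. Over the external background 48 of 48 passed the same limits in K562 cells and 0 of 32 in HEK293T cells. A fold above 8 over it was held by 49.9% of all K562 peaks and 34.7% of all HEK293T peaks. Among ACTB peaks of all RBPs it was held by 389 of 392 in K562 cells and 26 of 258 in HEK293T cells, so the 48 are not particular to IGF2BP2. That background is not the same in the lines: over all peaks the median log2 fold was 4.65 in K562 cells and 2.53 in HEK293T cells, and most K562 peaks have at most 1 background read. These counts are therefore not a comparison of the lines.

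The zipcode was looked for in 3′ UTRs as CGGAC followed within 30 nt by ACACC or ACACA, on the strand of the gene. It was found in 266 of 19936 3′ UTRs (1.33%), and ACTB was the only member with it. The match lay at chr7:5527720-5527746 on the minus strand, 2 to 28 nt after the stop codon, with both parts in capitals.
ACTB, zipcode match: CGGACtatgacttagttgcgttACACC

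The highest fold of IGF2BP2 on ACTB lay over this match. In K562 replicate 2 a peak from 7 to 33 nt after the stop codon held 34 reads against 55 of the CC, a fold of 7.14 (log2 fold 2.84), just under the limit of 8. In K562 replicate 3 a peak from 6 to 31 nt held 48 reads against 61, a fold of 3.83 (log2 fold 1.94). K562 replicate 1, with the fewest IGF2BP2 reads on ACTB, had no peak there.

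A further peak of replicate 2 reached the match by 3 nt (30 reads, fold 2.01), and 1 peak of HEK293T replicate 2 by 2 nt (48 reads, fold 1.54). No merged peak of the other 9 RBPs, or of singleplex ABC, overlapped the match. Only peaks were available, so that reads of other RBPs outside their peaks are seen only through the CC.

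**Figure D4:**
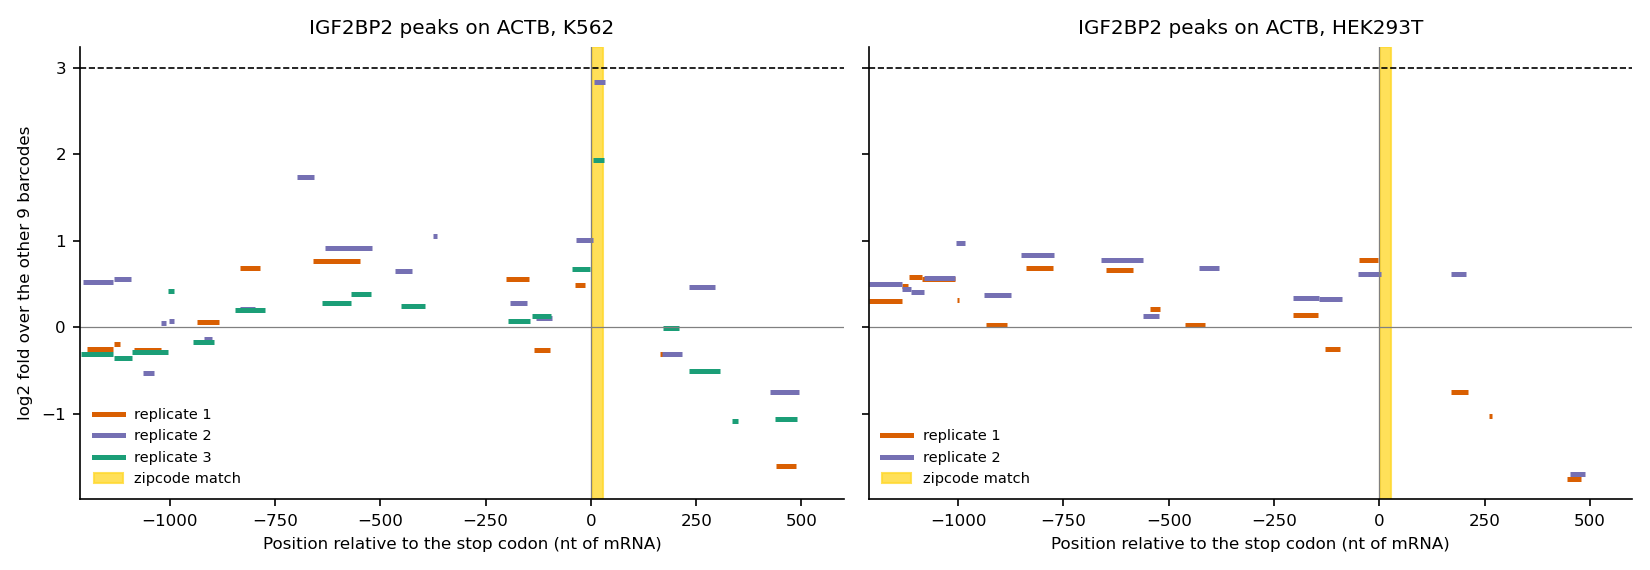
IGF2BP2 peaks on ACTB mRNA in K562 (left) and HEK293T cells (right). Each bar spans a peak in nt from the stop codon at the height of its log2 fold over the other 9 barcodes, coloured by replicate, with the zipcode match in yellow; in K562 cells the highest bars, at 2.84 (replicate 2) and 1.94 (replicate 3), lie on the match.

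K562 and HEK293T cells were compared for each member and RBP by log2(RPM + 10). As 3 pools against 2 allow no exact two-sided permutation p below 0.1, the values and their overlap are a description. Of the 70 pairs, 27 were higher in every K562 replicate and 9 lower in every K562 replicate, where 11.1% and 29.4% of all pairs were, and 34 overlapped. The 27 include RBFOX2 on TUBB2A, a gene that met the read minimum only through RBFOX2 in K562 cells. The median difference of all gene and RBP pairs was −0.20, K562 minus HEK293T. In HEK293T cells 81.8% of the ACTB peaks, 93.0% of the ACTG1 peaks and 74.6% of the TUBA1C peaks had a fold below 1 over the external background. This held for 9.65% of all HEK293T peaks and for 0 member peaks in K562 cells. The reads of such peaks were recovered and may be too low, as given under the processing. Member levels in HEK293T cells may thus be too low, and the differences, K562 minus HEK293T, too high. Peaks give the RNA crosslinked to an RBP, so that a higher amount of an mRNA and a larger crosslinked fraction of it cannot be told apart.

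The actins went apart. ACTB was higher in every K562 replicate for 9 of 10 RBPs, with differences from 0.31 to 1.65 and a median of 0.62. Its mean RPM over the RBPs of a pool was 1465, 1490 and 1823 in K562 cells and 916 and 913 in HEK293T cells. ACTG1 was lower in every K562 replicate for 9 of 10 RBPs, with differences from −3.90 to −0.95 and a median of −1.37. Its pool means were 297, 415 and 495 RPM in K562 cells and 1222 and 890 RPM in HEK293T cells, which do not overlap.

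Among the tubulins, TUBA1C was higher in every K562 replicate for 8 of 10 RBPs, with a median difference of 2.07 and pool means of 138, 188 and 221 RPM against 48.5 and 27.2 RPM. TUBA1B, TUBB and TUBB4B were higher for 3 RBPs each, with medians of 0.55, 0.29 and 0.27, and their pool means overlapped. TUBB2A met the read minimum in K562 cells only, and there only through RBFOX2, so its difference between the lines is not used as a result. Its median was 0.10, at pool means of 11.4, 11.3 and 7.62 RPM against 5.39 and 2.34 RPM. For pool means, 20% of all genes were higher in every K562 pool and 52.4% lower.

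**Figure D5:**
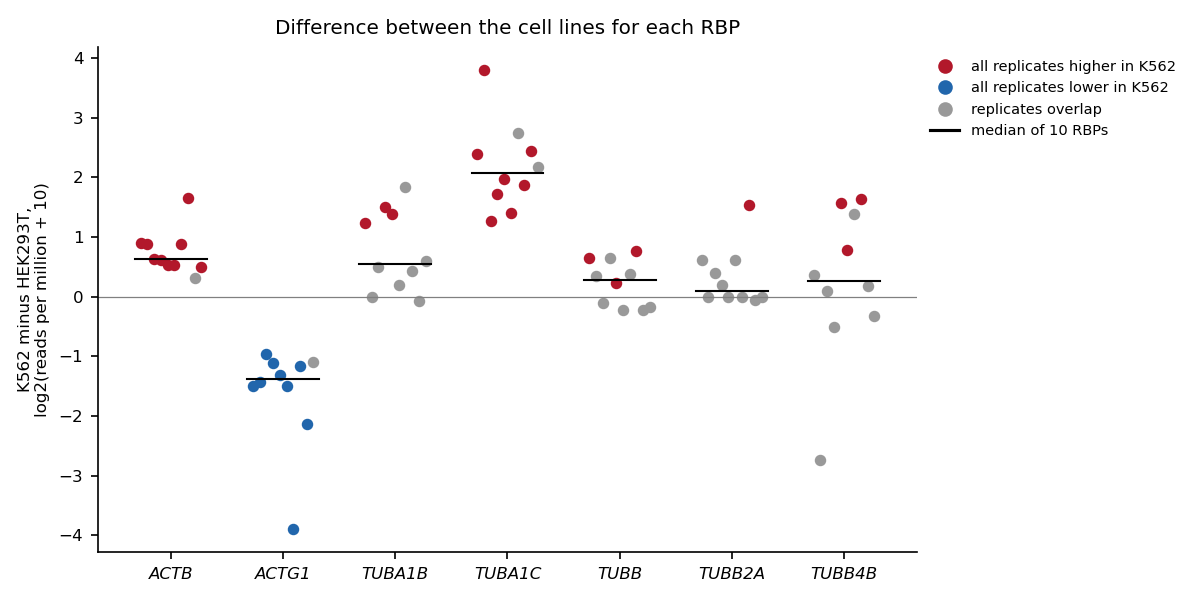
Difference K562 minus HEK293T in mean log2(RPM + 10) for each member, with 1 point per RBP coloured by whether the replicates of the lines overlap and a bar at the median. ACTB (median 0.62) and TUBA1C (2.07) lie above 0 for all RBPs and ACTG1 (−1.37) below 0 for all.

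The external background differs between the lines, as given above, so its folds are set here only against those of all peaks of the same line. In HEK293T cells 81.8% of the ACTB peaks, 93.0% of the ACTG1 peaks, 75.4% of the TUBA1B peaks and 77.3% of the TUBB peaks had a fold below 1 over it, where 9.65% of all peaks did. The other members ran from 42.9% (TUBB2A) to 100% (TUBA1A, 20 peaks). In K562 cells 0 member peaks had a fold below 1, where 0.029% of all peaks did.

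Other genes of the actin and tubulin pathways were given by a list of 45 further actins, tubulins, actin-binding proteins, chaperonin subunits and tubulin cofactors. In K562 cells 33 of them were tested, and 20 of 330 pairs passed, where 6.45% of all pairs did. LIN28B passed on 7 genes (6.61% of all genes), among them the chaperonin subunits CCT4 (difference 3.46), CCT5 (2.66) and CCT7 (4.42), which fold actin and tubulin. IGF2BP2 passed on 4 (5.75% of all genes), among them CFL1 (2.59), which severs actin filaments, and CAPZA1 (3.57), which caps them. FAM120A passed on ACTR2 (4.76) and ACTR3 (2.25), the actin-related subunits of the Arp2/3 complex, where 17.4% of all genes did. RBFOX2 passed on 3 (5.86% of all genes), among them the tubulin cofactor TBCD (3.05). DDX3 and PRPF8 passed on 2 each, where 3.30% and 20.1% of all genes did, and the other 4 RBPs on 0. Of the list's 3797 peaks, 569 were enriched over the CC (15.0%), where 20% of all peaks were.

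Over the 50 10plex libraries and 12988 genes, the genes whose log2(RPM + 10) ran most like that of ACTB were MTPN (Pearson r = 0.778), PTP4A2 (r = 0.769) and CAVIN1 (r = 0.745). TUBB ranked 30 with r = 0.624, and ACTG1 had r = 0.00859. Libraries of 1 pool and 1 cell line share their cells, and those of 1 RBP share their antibody.

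In singleplex ABC, RBFOX2 held 451 and 561.5 RPM on ACTB, from 2031 and 1254 reads, and 612 and 772 RPM on ACTG1, from 2760 and 1724 reads. In the HEK293T pools the RBFOX2 levels were 561 and 599 RPM on ACTB and 611 and 526 RPM on ACTG1. On TUBB the singleplex libraries held 74.8 and 141 RPM and the pools 157 and 196 RPM. SLBP held 37 and 12 reads on ACTB, 16 and 0 on ACTG1 and 15 and 0 on TUBB, and no peak on any α-tubulin or TUBB2A.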

How the data were processed

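The authors trimmed reads with cutadapt 2.8 (version from the submitters' processing notes), set aside repeats, aligned to GRCh38 with STAR 2.7.6, removed multi-mapped reads and PCR duplicates and called peaks per library with CLIPper, with no pooling of replicates. They deposited each peak's p-value and a display score, and merged peaks with a −log10 P (at most 400) and a log2 fold over an external background. For K562 replicates 1 and 2 and HEK293T, the deposited CC values are an unsigned chi-squared statistic, entered as a score, and its p-value; for K562 replicate 3 they are −log10 P and log2 fold.

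Reads per merged peak came from peak names or were recovered from the ratio behind the fold. For HEK293T peaks with a fold below 1, or a P near 1, this ratio leaves a common factor open. The factor was set from the CLIPper p-values of a gene's peaks or, failing that, from the background coverage of overlapping peaks. On HEK293T peaks of known reads, the CLIPper p-values gave the same reads for 97.9% and coverage for 77.8%, or 57.1% for RBFOX2. By summed reads, the CLIPper p-values gave 81.8% of the true summed reads of those peaks (71.3% for RBFOX2) and coverage 94.6% (92.3%). Levels that rest on recovered reads may be too low. CC reads and direction were solved from the statistic; on data simulated from K562 replicate 3 the direction was right for 96.2% to 99.2% of peaks and the CC reads for 94.0% to 98.6%. In the real lists a whole number of CC reads matched the statistic at 66.1% to 93.8% of HEK293T peaks and 80.3% to 93.6% of K562 peaks, and the nearest one was taken elsewhere. Of 2259 member peaks in 10plex libraries, 58 have no CC value. In K562 cells most peaks have at most 1 external background read, taken as 1.

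Regions followed GENCODE release 44, in the order CDS, 3′ UTR, 5′ UTR, noncoding exon, intron. Sequences were read from GRCh38. Tests and filters are given beside the results. The site named for a member has the highest mean fold among those enriched in each K562 pool or, where there is none, the most reads. Members and lists were chosen with earlier results of these data known. Nothing in the labels says that replicates are separate cultures, so p-values hold for these pools only. The permutation p-values rank the mean of an RBP among choices of RBPs from the same pools. The P over the CC compares the reads of a peak with those of the other barcodes of its pool. Neither measures the spread between pools or cultures. Depth limits which peaks could be called. Alternatives tried were other pseudocounts, read minimums and limits, touching peaks counted once, exonic peaks only, CLIPper peaks before merging, the external background, the region at a peak's centre, no replicate block, both lines together, each replicate left out and, chosen after seeing the data, PUM2 left out and 1 test for all replicates. Python 3.11.15, NumPy 2.4.6, pandas 2.3.3, SciPy 1.17.1, bedtools 2.31.1 and matplotlib 3.10.9 were used.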

Additional observations from a re-analysis of the deposited data

How the results depend on the processing

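The 4 pairs of member and RBP called in K562 cells, with RBFOX2 on TUBB2A counted among them, stayed at 3 to 5 with no replicate block (4), read minimums of 1 or 1000 (3), touching peaks counted once (3), pseudocounts of 1 or 100 (4), exonic peaks (3), all 5 pools (5) and PUM2 left out (4). With CLIPper peaks before merging, which give reads for 2 replicates, and without each replicate the count was 0, since 2 pools allow no smaller adjusted p than 0.161 to 0.168; the differences of the 4 pairs kept their sign where tested. Same-numbered libraries share a pool by the labels; their deviations correlated at 0.0338 to 0.312 (median 0.121, 135 pairs), and leaving out the replicate block left 4 calls in K562 cells and 0 in HEK293T cells. In HEK293T cells the count of 0 became 5 with all 5 pools, and EIF3G on TUBB4B, at 1.44 in HEK293T cells, reversed to −0.55; CLIPper peaks before merging were not run there, as their names hold no reads. The 3′ UTR share stayed at 0 calls throughout. The 78 enriched member peaks became 14 with P below 1e-05 and a fold above 16, 331 with any fold above 1 and 1122 over the external background, where the 0 enriched IGF2BP2 peaks on ACTB became 48; leaving out each replicate gave 50 (replicate 2) to 54, and 0 for IGF2BP2 on ACTB. The counts of enriched member peaks at these other limits stand without the share of all peaks, so they are no result about the members. The share of member pairs that do not overlap between the cell lines was 51.4%, where 11.1% of all pairs were higher and 29.4% lower in every K562 replicate. Without 1 replicate the member share was 61.4% to 73.3%, but fewer replicates make an overlap rarer for any gene. This range stands without the share of all pairs at the same setting, so it is no result about the members. TUBA1A, with too few reads, could not be tested.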
